A study of Mus musculus with 9 samples.

Results

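Photoreceptor ribbon synapse genes were described as a set of 10 genes, Cacna1f, Cacna2d4, Cabp4, Bsn, Pclo, Ctbp2, Slc17a7, Cplx4, Stx3 and Unc119, out of 18193 genes measured in mouse retina. They were chosen by name, as known components of the photoreceptor terminal, at a time when earlier results of these data were known. On the array they had 21 probe sets with a single gene symbol, out of 34945 such probe sets, and the probe set with the highest mean over all arrays stood for each gene. Each of 9 Affymetrix GeneChip arrays held RNA from a pool of 3 right-eye retinas of female mice of the albino BALB/c strain (Babl/c in the labels) aged 10 weeks, with 3 arrays per group. One group had lived under white LED (light-emitting diode) light with a correlated colour temperature of 2954K, another under white LED light of 7378K, both at 1000 lx, and the control group in what the labels call a relatively dark environment. The exposure lasted 14 days in cycles of 12 h on and 12 h off. The labels give no illuminance for the controls, and the neurosensory layer was separated from the pigment epithelium before extraction. Values are log2 signals, so that a difference of 1 is a 2-fold change.

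A photoreceptor releases glutamate tonically in darkness and less in light. Its terminal holds a ribbon, a plate-like scaffold that keeps synaptic vesicles ready beside L-type calcium channels, and the calcium that enters through these channels drives fusion. Mutations in several of the genes below are known to cause night blindness or cone and rod dysfunction, because signals then fail to pass from photoreceptors to bipolar cells. Bipolar cells also have ribbons, and Bsn, Pclo, Ctbp2 and Stx3 are expressed in other retinal cells too, so that pooled retina does not show which cell held a transcript. In such bulk samples fewer cells of a type and less RNA per cell cannot be told apart.

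The tissue carried photoreceptor transcripts at high level: the summed signal of 13 rod markers lay between 17.49 and 17.81 in the 2954K arrays, between 17.51 and 17.71 in the 7378K arrays and between 17.69 and 17.94 in the control arrays. The summed signal of 12 microglia markers was 13.07 to 13.16 under 2954K light and 13.19 to 13.30 under 7378K light, against 11.30 to 11.79 in controls (log2 of the sum, as for the rod markers). Of the rod markers, 5 of 13 fell under 7378K light (1.16% of all genes tested fell) and 0 of 13 under 2954K light (0.188%). Lens markers (12 measured) stood apart in the third array of each group, with a sum of 14.39 in 2954K 3, 12.05 in 7378K 3 and 16.93 in control 3, against 8.19 to 9.52 in the other 6 arrays. Muscle markers (4 of 10 above the filter) summed to 11.69 in control 3, against 8.90 to 9.46 in the other 8 arrays. Müller glia markers summed to 16.23 to 16.31 under 2954K light and 16.27 to 16.37 under 7378K light, against 15.87 to 16.21 in controls. Cone markers summed to 15.33 to 15.46 and 15.35 to 15.40, against 15.11 to 15.34 in controls. Single cone markers went both ways, with 6 of 9 above the control mean for 2954K and 4 of 9 for 7378K (median difference 0.15 and -0.09). Gnb3 had the largest difference, at 13.54 to 13.79 under 2954K light and 13.72 to 13.77 under 7378K light, against 12.62 to 12.85 in controls. Of 3 erythrocyte markers 0 reached the intensity filter, and the pigment epithelium and melanocyte list (11 of 12 above the filter) summed to 15.18 to 15.63, 14.36 to 15.40 and 13.79 to 15.54 in the 2954K, 7378K and control arrays. The gap between 3' and 5' control probe sets for Gapdh and beta-actin (3' minus 5' difference), which grows when 5' ends are less well represented in the labelled RNA, was 2.78, 0.21 and 1.05 in 2954K 1 to 3, 1.80, 1.67 and 1.55 in 7378K 1 to 3, and 0.33, 0.20 and 0.42 in control 1 to 3. The 7378K arrays all exceeded the controls (1.67 ± 0.13 against 0.32 ± 0.12, SD, n = 3; exact two-sided permutation p = 0.1, which is the smallest that 3 against 3 arrays allow, and 0.3 after Benjamini-Hochberg adjustment over 6 tests). The same gap for dap, a bacterial control transcript, was 2.73, 0.89 and 1.92 in 2954K 1 to 3, 2.69, 2.81 and 2.55 in 7378K 1 to 3, and 1.26, 0.79 and 1.63 in control 1 to 3 (7378K 2.68 ± 0.13 against control 1.23 ± 0.42, SD, n = 3; exact two-sided permutation p = 0.1, adjusted 0.3), so that it was not confined to retinal transcripts. The part of these marker levels in the results below was not tested, and either gap was entered as a covariate where stated. Neither gap overlapped between the 7378K and control arrays, so covariate and group cannot be told apart in that comparison. Within groups the Gapdh and beta-actin gap varied mainly in 2954K (SD 1.31, against 0.13 in 7378K and 0.12 in control). Its slope therefore rests mostly on the 2954K arrays, and values with a covariate are descriptions, not corrected effects.

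The promoters of the genes were searched for a pair of sequence motifs known from photoreceptor transcription, the core TAATCC bound by CRX and OTX2 and the site TGCTGA bound by NRL, on both strands. RefSeq promoters of build GRCm38.p6, from 250 bases before to 50 bases after an annotated start, were available here for 7 of the 10 genes (10 promoters). TAATCC was present for 3 of these 7 genes, Ctbp2, Stx3 and Unc119, and for 8.14% of 27025 genes with a promoter in the same table. Counted by promoter it was 3 of 10, beside 7.06% of 32851. The motif was also present for 3 of 8 rod marker genes and 1 of 8 genes of conventional synapses. No test was made, and 7 genes, some with several promoters, are too few to read more from it. TGCTGA was present for 1 of the 7 genes, Unc119, and for 21.7% of all genes. The motifs do not overlap each other, and a match describes letters, not binding. Ctbp2 and Unc119 are shown because their match lies in the 250 bases before a start, 121 and 118 bases upstream. In Stx3 the match lay 30 bases after the start. Capitals mark TAATCC or its reverse complement, each sequence runs 5′ to 3′ on the strand of its gene, and the inner of the 2 Ctbp2 promoters in the table and the second of the 3 Unc119 promoters are meant.

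Ctbp2 (chr7:133015248-133015497, minus strand): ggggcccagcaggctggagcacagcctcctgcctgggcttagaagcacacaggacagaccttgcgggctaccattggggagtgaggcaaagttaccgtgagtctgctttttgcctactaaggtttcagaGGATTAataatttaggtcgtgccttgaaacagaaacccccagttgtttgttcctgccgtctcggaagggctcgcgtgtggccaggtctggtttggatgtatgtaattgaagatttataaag

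Unc119 (chr11:78345334-78345583, plus strand): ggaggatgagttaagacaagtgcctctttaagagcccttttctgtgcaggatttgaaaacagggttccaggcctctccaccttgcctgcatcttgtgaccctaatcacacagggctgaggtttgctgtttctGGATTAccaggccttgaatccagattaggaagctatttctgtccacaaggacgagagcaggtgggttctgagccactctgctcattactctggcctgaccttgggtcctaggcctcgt

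No ribbon synapse gene passed the test in any comparison. All 10 genes lay above the intensity filter, and with limma 0 rose and 0 fell under 2954K light, where 1.22% of the 12761 genes tested were called (1.03% risen, 0.188% fallen). Under 7378K light 0 of 10 were called, where 3.52% of all genes were (2.36% risen, 1.16% fallen), and in 7378K against 2954K 0 of 10 as well as 0% of all genes. An unadjusted p under 0.05 was reached by 2 of the 10 genes in each comparison with control (13.1% of all genes for 2954K and 22.6% for 7378K) and by 0 of 10 between the LED groups (4.07%). The median difference of the 10 genes was -0.09 for 2954K and 0.00 for 7378K, beside 0.01 and 0.04 over all genes tested. Their median absolute difference was 0.15 and 0.16, beside 0.17 and 0.21 over all genes. A count of 0 of 10 lies near these backgrounds.

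**Figure D1:**
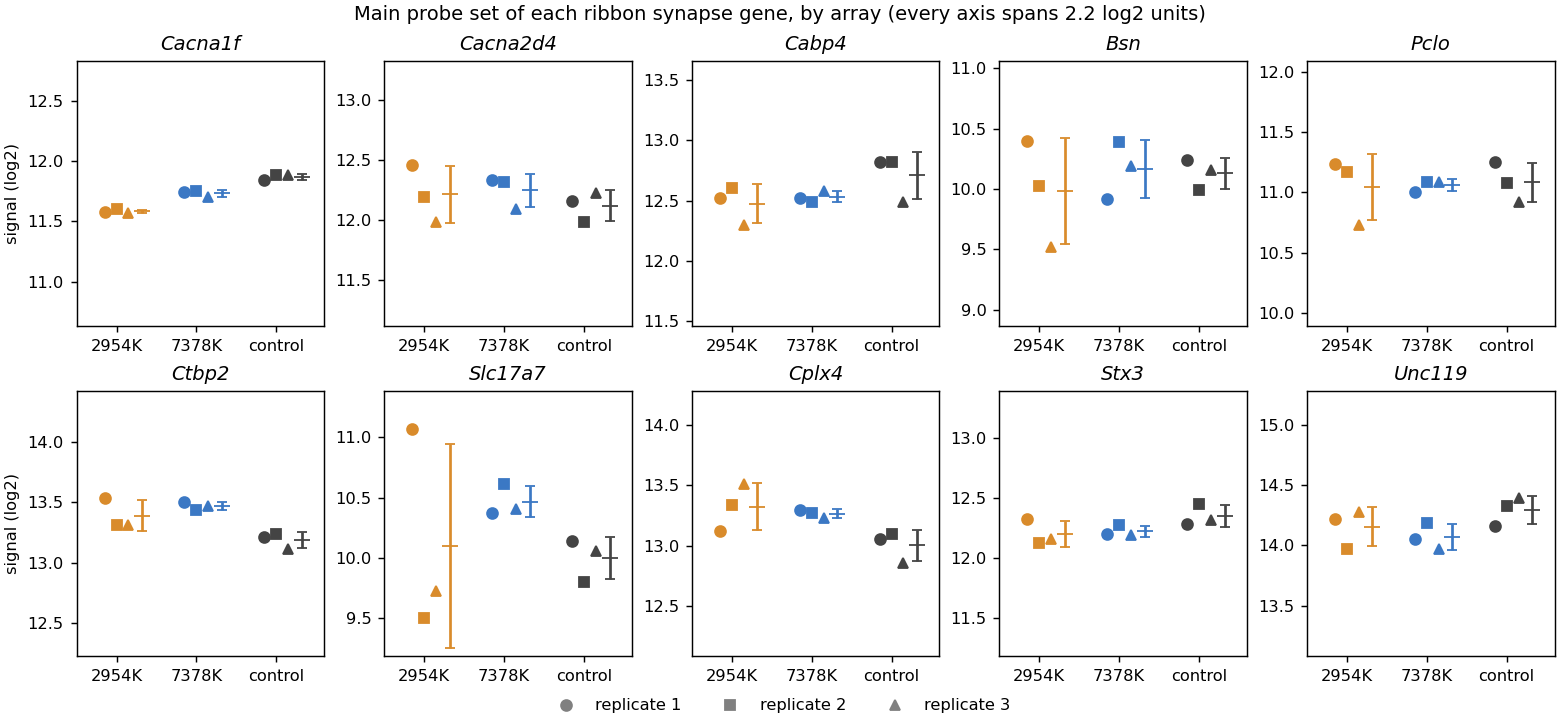
Log2 signal of the main probe set of each of the 10 genes (1 panel per gene) on the 2954K, 7378K and control arrays, with symbols for the replicate and bars for mean ± SD (n = 3). Every axis spans the same width of 2.2. Cacna1f lies lowest under 2954K light and highest in controls with little spread, Ctbp2 and Cplx4 lie above control in both LED groups, and Slc17a7 is spread widely by 2954K 1 at 11.07.

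The intervals of the differences bound what the main probe sets could have shown on these arrays, not what the genes did. Further probe sets of Stx3, Cabp4 and Cacna2d4, given below, had 7378K differences of -2.63, -1.50 and -1.27. Others went the other way, such as Stx3 1425530_a_at at 0.38. For 7 of 10 genes in 2954K against control, and for 8 of 10 in 7378K against control, the unadjusted 95% confidence interval lay within 0.5 on either side of 0. The widest belonged to Slc17a7, from -0.57 to 0.77 for 2954K and from -0.20 to 1.13 for 7378K. A p that misses the threshold does not show that a gene stayed at its control level.

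Among the calcium channel genes, the pore subunit gave the smallest p of the set under 2954K light. Cacna1f (chromosome X, 7607103 to 7635196, GRCm38.p6), which encodes the Cav1.4 pore of photoreceptor terminals and is mutated in a form of congenital stationary night blindness, measured 11.58, 11.60 and 11.57 under 2954K light, then 11.74, 11.75 and 11.70 in the 7378K arrays, against 11.84, 11.88 and 11.88 in the controls. The 3 groups did not overlap, with 2954K lowest and control highest. The difference from control was -0.29 ± 0.08 (SE) for 2954K, a fold of 0.82 (95% interval 0.726 to 0.926; limma adjusted p = 0.139), and -0.14 ± 0.08 for 7378K (adjusted p = 0.336). It has 1 probe set. It kept its sign in both comparisons with control under the 23 alternatives tried, with adjusted p of 0.0511 to 0.548 for 2954K.

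Cacna2d4 (chromosome 6, 119236524 to 119352407), the auxiliary alpha-2-delta-4 subunit that carries the channel to the terminal, measured 12.45, 12.20 and 11.99 under 2954K light, then 12.34, 12.31 and 12.09 in the 7378K arrays, against 12.16, 11.98 and 12.23 in the controls. All 3 groups overlapped, and the differences from control were 0.09 ± 0.13 and 0.13 ± 0.13, or -0.05 and -0.06 with the 3' minus 5' covariate. Cabp4 (chromosome 19, 4135423 to 4144080), a calcium-binding protein that modulates Cav1.4, measured 12.52, 12.61 and 12.29 under 2954K light, 12.53, 12.49 and 12.58 under 7378K light, against 12.82, 12.82 and 12.49 in the controls. The LED arrays overlapped the controls through control 3, with differences of -0.23 ± 0.12 (adjusted p = 0.417) and -0.18 ± 0.12 (adjusted p = 0.388). With the dap covariate the 7378K value was -0.01. Both genes have further probe sets that behaved otherwise and are given further on.

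Among the scaffold genes, the ribbon gene Ctbp2 gave the smallest p under 7378K light. Ctbp2 (chromosome 7, 132986998 to 133124009) encodes both the co-repressor CtBP2 and, from an internal start, RIBEYE, the main protein of the ribbon, and the labels and annotation used here do not assign its probe sets to either product. Its main probe set measured 13.54, 13.32 and 13.31 under 2954K light, then 13.51, 13.44 and 13.47 in the 7378K arrays, against 13.21, 13.24 and 13.11 in the controls. Every LED array lay above every control array. The difference was 0.20 ± 0.09 for 2954K (adjusted p = 0.383) and 0.29 ± 0.09 for 7378K, a fold of 1.22 (1.06 to 1.40; adjusted p = 0.105). Its further probe set 1422887_a_at gave -0.02 and 0.07 and overlapped with control in both comparisons. The 7378K difference passed in the fit of the 7378K and control arrays alone (adjusted p = 0.012), without 2954K 1 (0.0244) and with array weights (0.0128), and became 0.17 once the 3' minus 5' measure entered the fit (adjusted p = 0.603).

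Bsn and Pclo encode bassoon and piccolo, large scaffold proteins of the active zone, of which bassoon anchors the ribbon to the membrane. Bsn (chromosome 9, 108096022 to 108190419) measured 10.40, 10.03 and 9.52 under 2954K light, 9.91, 10.39 and 10.19 under 7378K light, against 10.24, 9.99 and 10.16 in the controls. Pclo (chromosome 5, 14514906 to 14863465) measured 11.24, 11.17 and 10.73 under 2954K light, 11.00, 11.09 and 11.09 under 7378K light, against 11.25, 11.08 and 10.92 in the controls. All groups overlapped for both genes, with differences from control of -0.15 ± 0.20 and 0.03 ± 0.20 for Bsn and of -0.04 ± 0.14 and -0.03 ± 0.14 for Pclo. With the 3' minus 5' covariate they were -0.35 and -0.23 for Bsn and -0.10 for Pclo in both comparisons. The array 2954K 3 was the lowest of the 9 for both genes, and without it the Pclo difference for 2954K was 0.12. Over the 9 arrays the values of Bsn and Pclo had a Pearson r of 0.776, the highest among the 45 pairs of the 10 genes, which as a whole had a median r of 0.082 (23 of 45 positive, range -0.721 to 0.776). These correlations share arrays and scaling and are given as descriptions.

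Among the genes of vesicle loading and fusion, Cplx4 was higher in both LED groups without overlap, Stx3 was near control, and Slc17a7 was spread by 1 array. Cplx4 (chromosome 18, 65955722 to 65970178), a complexin of ribbon synapses that holds back spontaneous fusion, measured 13.12, 13.34 and 13.51 under 2954K light, then 13.30, 13.27 and 13.23 in the 7378K arrays, against 13.05, 13.10 and 12.85 in the controls. Every LED array exceeded the highest control, although 2954K 1 did so by little. The difference was 0.32 ± 0.11 for 2954K, a fold of 1.25 (1.06 to 1.48; adjusted p = 0.244), and 0.26 ± 0.11 for 7378K, a fold of 1.20 (1.01 to 1.42; adjusted p = 0.191). Adjusted for the 3' minus 5' measure, the values were 0.43 and 0.41 (adjusted p = 0.127 and 0.20), and with the dap covariate 0.40 and 0.45. Cplx4 passed for 7378K in the fit of those arrays and the controls alone (adjusted p = 0.0374).

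Stx3 (chromosome 19, 11775118 to 11821569) encodes syntaxin 3, the plasma membrane SNARE protein that ribbon synapses use in place of syntaxin 1. Its main probe set measured 12.32, 12.13 and 12.16 under 2954K light, then 12.20, 12.27 and 12.19 in the 7378K arrays, against 12.28, 12.45 and 12.31 in the controls. The 7378K arrays lay just below all controls, with a difference of -0.13 ± 0.09 (adjusted p = 0.438), and the 2954K arrays overlapped the controls, with -0.15 ± 0.09 (adjusted p = 0.515). With the 3' minus 5' covariate the values were -0.23 and, for 2954K, -0.22.

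Slc17a7 (chromosome 7, 45163921 to 45176139) encodes the vesicular glutamate transporter VGLUT1, which fills photoreceptor and bipolar vesicles. It measured 11.07, 9.50 and 9.73 under 2954K light, then 10.37, 10.61 and 10.40 in the 7378K arrays, against 10.14, 9.80 and 10.06 in the controls. The 7378K arrays lay above all controls, whereas 2954K 1 was the highest and the other two 2954K arrays the lowest of all 9. The difference was 0.10 ± 0.31 for 2954K, which became -0.38 without 2954K 1, and 0.47 ± 0.31 for 7378K, a fold of 1.38 (0.869 to 2.19; adjusted p = 0.392). The 4 arrays highest in Slc17a7 were also the 4 with the highest 3' minus 5' difference, 2.78 in 2954K 1 and 1.55 to 1.80 in the 7378K arrays, but 2954K 3, next at 1.05, lay below all controls. With that difference as a covariate the values were -0.55 for 2954K (adjusted p = 0.168) and -0.39 for 7378K (adjusted p = 0.432), both of the other sign. The 7378K difference passed in the fit of those arrays and the controls alone (adjusted p = 0.0172) and without 2954K 1 (0.0302).

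Unc119 (chromosome 11, 78343495 to 78349164) encodes a chaperone of lipid-modified proteins that is abundant in the photoreceptor ribbon terminal and carries transducin to the outer segment. It measured 14.22, 13.97 and 14.28 under 2954K light, then 14.05, 14.18 and 13.97 in the 7378K arrays, against 14.16, 14.32 and 14.39 in the controls. Control 1 lay within both LED groups. The difference was -0.14 ± 0.11 for 2954K (adjusted p = 0.625) and -0.22 ± 0.11 for 7378K (adjusted p = 0.253), and after quantile normalization the 7378K difference was -0.30 (adjusted p = 0.0425). With the 3' minus 5' covariate the values were -0.22 and -0.33, and with the dap covariate -0.22 and -0.42 (adjusted p = 0.281 for 7378K).

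**Figure D2:**
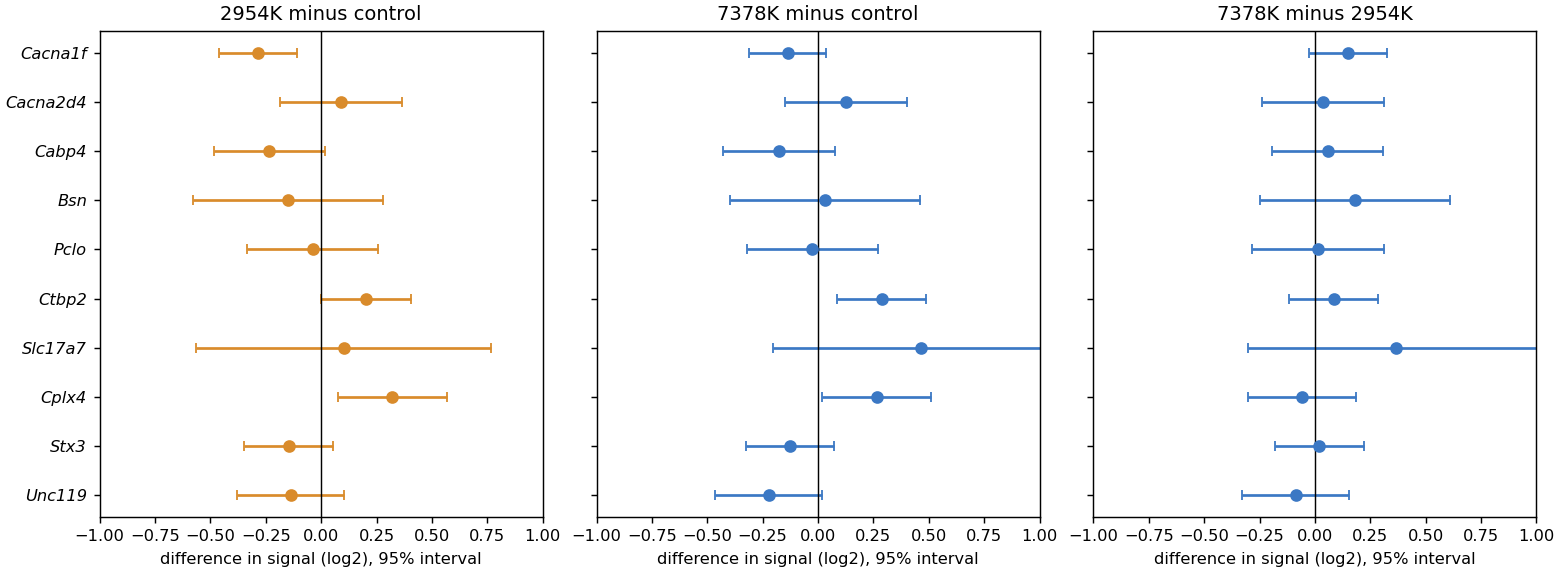
Log2 difference with its unadjusted 95% confidence interval for the 10 genes, in 2954K minus control, 7378K minus control and 7378K minus 2954K. The intervals of Cacna1f and Cplx4 exclude 0 in the first panel, those of Ctbp2 and Cplx4 in the second and 0 of 10 in the third, and 0 of 10 genes passed after adjustment over 12761 genes in any panel.

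The share of genes whose groups did not overlap was above that over all genes, but counts of 10 are too small to read more from it, and no test was made. Under 2954K light 3 of 10 genes were separate from control (Ctbp2 and Cplx4 above, Cacna1f below), where 15.2% of all genes were (7.68% above, 7.53% below). Under 7378K light it was 5 of 10 (Ctbp2, Slc17a7 and Cplx4 above, Cacna1f and Stx3 below), where 36.4% of all genes were (21.6% above, 14.8% below). Both comparisons share the 3 control arrays, so the results for Ctbp2, Cplx4 and Cacna1f are not independent of each other.

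The direct comparison of 7378K with 2954K set the groups of the same illuminance against each other. The differences ran from -0.09 for Unc119 to 0.36 for Slc17a7, and 8 of 10 genes were within 1 standard error of 0. Cacna1f alone was separate between the LED groups, 0.15 ± 0.08 higher under 7378K light (95% interval -0.03 to 0.32; adjusted p = 0.978), where 8.56% of all genes were separate (5.27% above, 3.28% below). In the fits that left out 1 array the Slc17a7 difference ran from 0.07 to 0.85, so its size depended on which array was dropped. The value of 0.85 was that without 2954K 1 (adjusted p = 0.0466).

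Probe sets of the same gene disagreed, in particular for Stx3, Cabp4, Cacna2d4 and Pclo, and 1 probe set of each, chosen here because it was lower under 7378K light, is set beside the 3' minus 5' difference of the arrays. Other probe sets of these genes behaved otherwise: Pclo 1455373_at was lowest in control 3 (8.85) and Stx3 1425530_a_at highest in 2954K 1 (10.60). The Stx3 probe set 1426151_a_at measured 6.97, 11.17 and 9.35 in 2954K 1 to 3, 8.41, 8.61 and 8.41 in the 7378K arrays, against 11.11, 11.56 and 10.65 in the controls. It was lowest in 2954K 1, which had the highest 3' minus 5' difference (2.78), and within the control range in 2954K 2, whose 3' minus 5' difference of 0.21 was also within the control range. Its difference from control was -2.63 ± 0.76 for 7378K and -1.94 ± 0.76 for 2954K, whereas the main probe set gave -0.13 and -0.15 and probe set 1425530_a_at gave 0.38 and 0.10. Adjusted for the 3' minus 5' measure the 7378K value was -0.47 ± 0.24, and with that of the dap probe sets, which detect a bacterial control transcript, 0.30 ± 0.39. The Stx3 probe set 1434559_at gave 0.06 for 7378K and -0.04 for 2954K.

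The second Cabp4 probe set, 1425878_at, was the one probe set of the genes that passed when all probe sets were fitted separately. It measured 9.82, 11.36 and 10.96 in 2954K 1 to 3, 9.96, 10.18 and 9.94 in the 7378K arrays, against 11.48, 11.72 and 11.38 in the controls. The LED arrays all lay below the controls, 2954K 2 by the least. For 7378K it fell by 1.50 on the log2 scale (SE 0.30, limma adjusted p = 0.031 over 22646 probe sets, of which 2.51% were called and 1.12% fell), against -0.18 for the main Cabp4 probe set. The call was kept in 3 of 9 fits that left out 1 array, and its adjusted p reached 0.145 without control 2. Adjusted for the 3' minus 5' measure the fall was -0.68 ± 0.14 (adjusted p = 0.0573), and with the dap covariate -0.45 ± 0.24 (adjusted p = 0.644).

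The Pclo probe set 1452423_at was lowest in 7378K 3 and 2954K 1, with 4.10, 7.62 and 6.99 under 2954K light, then 5.79, 5.86 and 3.81 in the 7378K arrays, against 6.97, 7.51 and 6.32 in the controls. Its 7378K difference of -1.78 ± 0.86 became 0.05 ± 0.79 with the covariate. The Cacna2d4 probe set 1442863_at measured 6.74, 8.64 and 7.48 under 2954K light, then 7.37, 6.43 and 6.53 in the 7378K arrays, against 7.85, 8.45 and 7.84 in the controls, and its 7378K difference of -1.27 ± 0.44 became -0.36 ± 0.42. A further Cacna2d4 probe set, 1457703_at, gave -0.47 ± 0.12 and -0.32 ± 0.13 with the covariate. The main probe sets of both genes gave -0.03 and 0.13, and the Pclo probe set 1455373_at gave 0.01. The distance of a probe set from the 3' end of its transcript is not given in the sources used here, so its part in the disagreement was not tested.

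**Figure D3:**
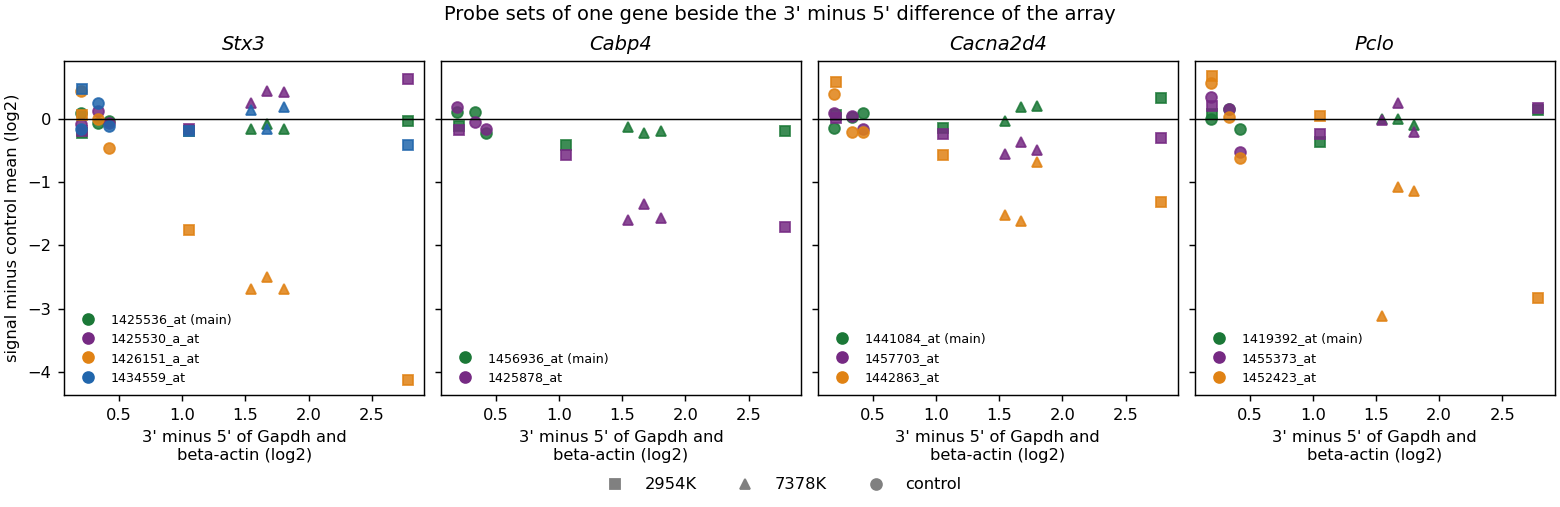
Signal of each probe set above the filter minus its mean in the control arrays (log2), for Stx3, Cabp4, Cacna2d4 and Pclo, against the 3' minus 5' difference measured on that array (log2). Colours are probe sets and symbols are groups. Stx3 1426151_a_at, Cabp4 1425878_at and Pclo 1452423_at vary more than the main probe sets and are low on the 7378K arrays and on 2954K 1, and near control on 2954K 2.

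Few genes disagreed as much as Stx3. Over 5864 genes with at least 2 probe sets above the filter, the range of the 7378K differences over the probe sets of a gene had a median of 0.53 and exceeded 1 for 21.9% of the genes. It was 3.01 for Stx3 (0.46% of genes had a larger one), 1.79 for Pclo (5.37%), 1.39 for Cacna2d4 (11.8%), 1.32 for Cabp4 (12.8%), 0.30 for Bsn (71.9%) and 0.22 for Ctbp2 (80.0%). Such a range grows with the number of probe sets, and the genes were not matched for it. Stx3 had 4 above the filter, Pclo and Cacna2d4 3 each, and Cabp4, Bsn and Ctbp2 2 each. The third Bsn probe set, 1422023_at, lay below the filter at 1.44 to 3.29 and was not tested.

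Other genes of synaptic transmission, taken from lists of the release machinery, were called in few cases. Over all genes tested, 1.22% were called under 2954K light (1.03% risen, 0.188% fallen) and 3.52% under 7378K light (2.36% risen, 1.16% fallen). Of 14 further active zone genes 0 were called in either comparison with control. Unc13a, a priming factor of vesicles, measured 9.51 under 2954K light and 9.66 under 7378K light against 9.12 in controls (adjusted p = 0.257 and 0.0527), and Rims1, an active zone scaffold, 11.09 and 11.19 against 10.85 (adjusted p = 0.439 and 0.138).

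Of 14 further genes of calcium channel subunits and calcium pumps, 0 were called under 2954K light and 1 fell under 7378K light. Cacnb2, a beta subunit that partners the Cav1.4 pore in photoreceptors, measured 10.02, 11.17 and 10.57 under 2954K light, then 10.05, 10.42 and 10.34 in the 7378K arrays, against 11.23, 11.50 and 11.22 in the controls. All LED arrays lay below the controls, 2954K 2 by the least. It fell by 1.05 on the log2 scale under 7378K light (SE 0.23, adjusted p = 0.0284) and measured 0.73 below control under 2954K light (log2 difference -0.73, adjusted p = 0.189). Both differences are from limma. The 7378K call was kept in 4 of 9 fits that left out 1 array (adjusted p up to 0.135 without 7378K 1), and the difference was -0.45 with the 3' minus 5' covariate (adjusted p = 0.262) and -0.23 with the dap covariate (adjusted p = 0.766). Its further probe set 1452476_at was also lower, at 7.14, 9.66 and 9.08 in 2954K 1 to 3 and 7.79, 8.45 and 8.06 in the 7378K arrays against 9.83, 10.25 and 9.94 in controls. Atp2b1, a calcium pump of the plasma membrane, measured 12.94 under 2954K light against 12.67 in controls (adjusted p = 0.22), and Cacna2d3, an alpha-2-delta subunit, differed from control by -0.26 under 7378K light (adjusted p = 0.132).

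Among 13 synaptic vesicle genes 1 rose in each comparison with control and 0 fell. Syngr3, a synaptogyrin of the vesicle membrane, measured 9.91, 9.67 and 9.93 under 2954K light, then 9.98, 9.75 and 9.69 in the 7378K arrays, against 9.21, 8.93 and 9.33 in the controls. Every LED array lay above every control array. It rose 1.60-fold under 2954K light (adjusted p = 0.0405) and 1.57-fold under 7378K light (adjusted p = 0.0283), but the calls were kept in 2 and 4 of 9 fits that left out 1 array, and the adjusted p reached 0.207 without control 2 and 0.143 without 7378K 1. With the 3' minus 5' covariate the differences were 0.57 and 0.52 (adjusted p = 0.18 and 0.285), and with the dap covariate 0.56 and 0.37 (adjusted p = 0.107 and 0.599), against 0.68 and 0.65 without. The further Syngr3 probe set, 1448216_at, had a mean of 5.88, just below the filter of 5.91, and was not tested. It measured 5.91, 7.75 and 4.72 in 2954K 1 to 3 and 3.56, 5.70 and 5.95 in the 7378K arrays, against 6.78, 7.87 and 4.64 in controls. Both LED groups overlapped the controls there, without the rise of the main probe set. Scamp1, a carrier membrane protein, differed by -0.28 and -0.31 (adjusted p = 0.34 and 0.157).

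Of 14 further vesicle fusion genes, 13 genes of the terminal scaffold and its trans-synaptic partners, and 7 partners of Unc119, 0 were called in either comparison with control. Cadps2, a priming factor of vesicles, measured 8.29 and 8.48 in the 2954K and 7378K groups against 7.79 in controls (adjusted p = 0.35 and 0.0979). Lin7a, a scaffold protein of the terminal, measured 12.59 in both LED groups against 12.24 (adjusted p = 0.192 and 0.0956), and its relative Lin7c measured 11.39 under 7378K light against 11.80 (adjusted p = 0.0804). Arl2, a small GTPase in the list of Unc119 partners, measured 9.94 and 9.87 against 10.23 in controls (adjusted p = 0.34 and 0.117). Vamp1, a vesicle SNARE protein, and Mpp4, a terminal scaffold protein, differed by -0.36 and -0.20 under 2954K light (adjusted p = 0.369 and 0.373), and Arl3, a relative of Arl2, by 0.12 (0.744). Snapin, a SNARE-binding protein, and Rp2, which acts on Arl3, differed by -0.44 and -0.41 under 7378K light (adjusted p = 0.12 and 0.146). With the 3' minus 5' covariate the 7378K differences were -0.10 for Snapin, -0.17 for Rp2, -0.15 for Lin7c, 0.15 for Lin7a, 0.08 for Rims1, -0.19 for Arl2 and -0.13 for Scamp1. Over all lists, 10 of the 14 genes named for 7378K against control and 8 of the 14 for 2954K moved by over 1.5 times or turned sign with it. These genes were named for a call or a small p without the covariate, and the share over all genes was not computed. The counts therefore say nothing particular about these genes.

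Of 8 genes of conventional synapses that photoreceptor terminals hold little of, such as synapsins, syntaxin 1 and GABA enzymes, 0 were called. Under 7378K light all 8 lay above the control mean (median difference 0.21), as did 7149 of the 12761 genes tested. Without overlap 5 of 8 lay above controls, where 21.6% of all genes did. In the other lists this held for 6 of 14 active zone, 4 of 14 calcium and 4 of 13 terminal genes. It also held for 2 of 14 fusion genes, 2 of 13 vesicle genes and 1 of 7 Unc119 partners. No test was made of these counts. With the 3' minus 5' covariate 4 of 8 lay above 0 and Cplx2, Syn1, Gad1 and Gad2 below it, and with the dap covariate also 4 of 8 were above. Slc32a1, the vesicular transporter of GABA and glycine, measured 11.22 and 11.46 in the 2954K and 7378K groups against 10.85 in controls (adjusted p = 0.34 and 0.0538), and its 7378K difference of 0.61 was 0.24 with the 3' minus 5' covariate. Stx1a, syntaxin 1A, measured 9.25 and 9.41 against 8.94 (adjusted p = 0.488 and 0.15).

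**Figure D4:**
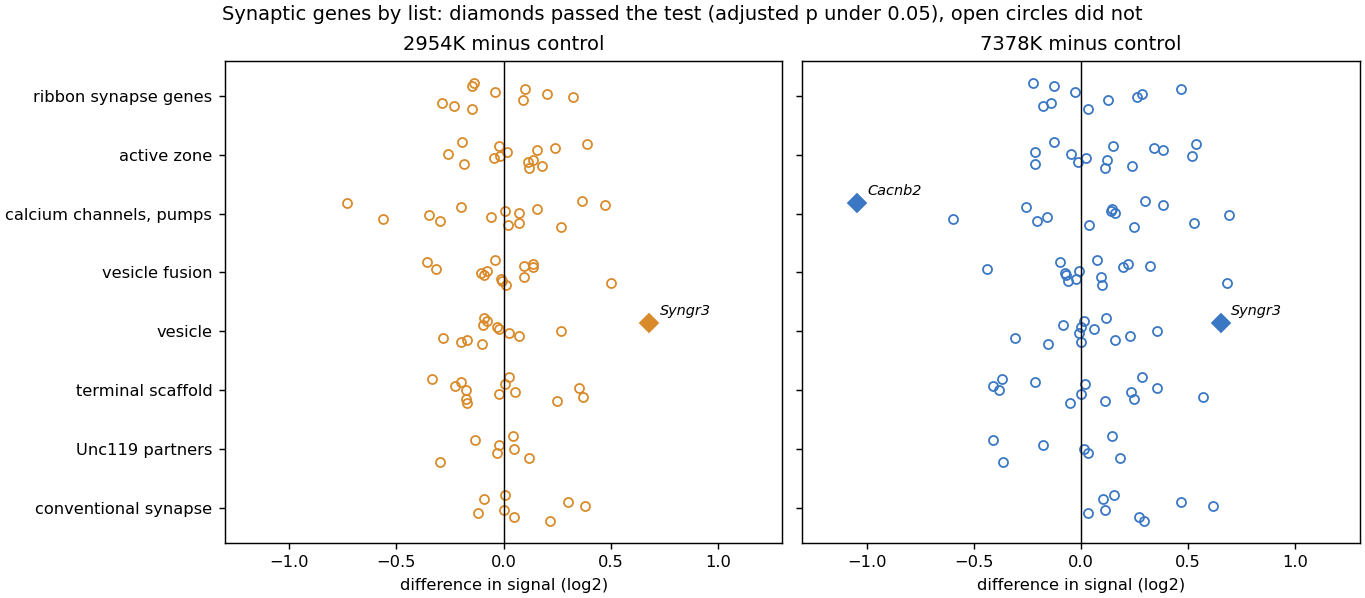
Log2 difference of every tested gene of the ribbon synapse set and of the further lists, in 2954K minus control and 7378K minus control, with 1 point per gene. Diamonds passed the test and open circles did not. Syngr3 is the one diamond for 2954K, Syngr3 and Cacnb2 are the diamonds for 7378K, and the row of ribbon synapse genes has none.

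In 7378K against 2954K, 0 genes of these lists passed. The 2 smallest p of each list belonged to Ppfia3 (0.54) and Rab3gap1 (-0.23) of the active zone, Cacna1c (1.04) and Cacnb2 (-0.31) of the calcium genes, Vamp1 (0.26) and Vamp2 (0.12) of fusion, Syp (0.21) and Rab3a (0.20) of vesicles, Dlg4 (0.42) and Slc1a7 (0.26) of the terminal, Rp2 (-0.28) and Pde6d (-0.15) of the Unc119 partners, and Slc32a1 (0.24) and Gad1 (0.15) of conventional synapses, given as log2 differences with an adjusted p of 0.978 each.

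The genes most like the set in their pattern over the 9 arrays were Dennd1b and Zfc3h1, with a Pearson r of 0.941 each to the mean of the 10 standardised profiles, followed by Dhtkd1 (0.940), Kif21b (0.938) and Bend6 (0.935). Their differences from control were -0.12 to -0.07 for 2954K and -0.03 to 0.12 for 7378K. These genes were picked for their match to a mean of genes that went in both directions, so small differences carry no further meaning. The genes most like Ctbp2 were Smim13 (0.987), Hdac1 (0.982), Ccdc39 (0.982), Mlh3 (0.979) and Nrep (0.977), which were between 0.23 and 0.62 above control for 7378K. These correlations over 9 arrays are the highest among the 12761 genes tested, after leaving out the 10 genes themselves and genes with predicted or clone-type names. No p goes with them.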

How the data were processed

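Retinal RNA was measured on 9 arrays in 3 groups of 3 pools. The authors deposited log2 values for 45101 probe sets, 0 of them missing. MAS5 and affy are named in the submitters' processing notes, with no version or role. The deposited log2 values, turned back to linear signals, have a 2% trimmed mean of 500 on every array, which shows scaling to a common mean, while distributions were not equalised. Signal over background was not analysed here. P-values measure the spread between pools.

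Gene names come from the platform annotation, and all 10 genes matched RefSeq (GRCm38.p6) by identifier. Of a gene's probe sets with 1 symbol, the brightest on average represented it. Genes averaging under 5.91, the 40th percentile, were left out, so that 12761 of 18193 were tested. Limma 3.58.1 in R 4.3.3 was fitted to all 9 arrays with 1 mean per group, 6 residual degrees of freedom and an intensity trend. Benjamini-Hochberg adjustment ran over all genes of a comparison, with a call under 0.05. The code was tested on simulated data. The genes and lists were chosen with earlier results of these data known. From each further list, called genes and otherwise the 2 smallest p per comparison were named. Alternatives covered probe set choice, filter, normalization, the samples fitted, RNA quality covariates, array weights and left-out arrays. Figures were drawn with matplotlib 3.10.9.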

Additional observations from a re-analysis of the deposited data

How the results depend on the processing

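Sign changes are counted as reversals where the value exceeded its standard error. Under 2954K light 0 of 10 genes passed in all alternatives. Under 7378K light 1 passed with the mean of all probe sets (Cabp4), with quantile normalization (Unc119), with array weights (Ctbp2) and with probe sets fitted separately (Cabp4), and 3 passed with only the groups compared (Cplx4, Ctbp2 and Slc17a7) and, in an alternative chosen after seeing the data, without both 2954K arrays whose 3' minus 5' difference was above 1. Leaving out 1 array gave 0 to 2 genes for 7378K against control and 0 to 1 for 7378K against 2954K, both highest without 2954K 1; the added alternative gave 1 for 7378K against 2954K. With the mean of all probe sets, Cacna2d4 was -0.54 for 7378K against control, and Cacna2d4, Cabp4 and Pclo were -0.37, -0.32 and -0.37 for 7378K against 2954K. Slc17a7 was -0.55 (2954K) and -0.39 (7378K) with the 3' minus 5' covariate, -0.36, -0.61 and, between the LED groups, -0.25 with the dap covariate, and -0.50 (2954K) in the added alternative. Without the third array of each group Pclo was -0.16 for 7378K against 2954K. Leaving out 1 array, Slc17a7 ranged from -0.38 to 0.40 and Pclo from -0.13 to 0.12 for 2954K, and Pclo from -0.14 to 0.11 between the LED groups. The cause of these changes was not tested. Of 230 values per comparison 215, 207 and 197 kept direction and side of the threshold (2954K and 7378K against control, 7378K against 2954K), and 10, 9 and 25 more changed sign within 1 standard error. Counts over all genes, 156, 449 and 0, ranged over 68 to 897, 71 to 2688 and 0 to 520.

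Same-numbered arrays of different groups correlated at 0.06 to 0.33 in their deviations from the group means, and differently numbered ones at -0.27 to 0.09. All same-numbered values were above 0, though not all above 0.1. The labels describe separate pools and give no batch, so the main fit did not take the numbers as pairs. Whether same-numbered arrays share a batch was not tested. With the replicate block 0 of 10 genes passed in each comparison, and 163, 638 and 0 genes overall. With 3 arrays per group, small differences of dim probe sets were not detectable.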
